A study of Homo sapiens with 4 samples.

Results

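Keratins are the intermediate filament proteins of epithelial cells. The genes described here are the 4 keratins that mark the luminal cells of the breast (KRT7, KRT8, KRT18 and KRT19), 5 that mark the basal cells or the stressed and stratified epithelium (KRT5, KRT14, KRT15, KRT16 and KRT17), and KRT23, an inducible type I keratin. They were taken as all probes whose RefSeq accession belongs to 1 of these 10 genes, which gave 15 probes of 41000 on the array, and 10 genes of the 16422 that could be named. All 15 probes had a signal of 100 or more on at least 1 array, as did 25927 probes and 12159 genes in all. KRT5 and KRT17 reached that signal on the SkBr3/Lap array only and KRT16 on the arrays of both clones only, so that these genes had to differ in order to be kept.

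A keratin filament is built from pairs of 1 acidic type I and 1 basic type II chain, and the pairs are typical of the layer. KRT8 (type II) with KRT18 (type I) is the primary pair of simple epithelium and of luminal cells, where KRT7 and KRT19 are added, while KRT5 with KRT14 is the pair of basal keratinocytes and of basal and myoepithelial cells of the mammary duct. KRT16 and KRT17 are known as type I keratins induced in wounded or inflamed epidermis, and pathologists use KRT5, KRT14 and KRT17 to recognize basal-like breast carcinomas.

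Total RNA was hybridized from SkBr3 and BT474, both HER2-positive breast cancer cell lines, and from 1 lapatinib-resistant clone of each, written here SkBr3/Lap and BT474/Lap. Lapatinib blocks the kinases of HER2 and EGFR, and the clones were selected in rising concentrations that ended at 1 μM, whereas the parental cells carry the label vehicle. All cells grew in the same type of medium. Each condition was measured on 1 Agilent 1-color array, so that there are no replicates. Each line is represented by 1 clone, and a clone's own history cannot be told apart from resistance. For its protein blots the paper kept these clones in 1 μM lapatinib. An effect of drug present in the culture thus cannot be told apart from resistance either. The labels give clone number 3 for SkBr3/Lap and 6 for BT474/Lap, while the study's text gives 6 and 3.

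The signal of a probe is the intensity that the scanner software reports after it subtracts the background. The 75th percentile of the signals was 1115 to 2074 over the arrays, and to make the arrays comparable each probe was divided by it. Scaled signals below are these values multiplied by a constant common to all arrays, and they compare a probe with itself on other arrays but not with other probes. The software flagged 66.6% to 74.0% of probes as well above background, down to signals of 13.3 to 16 depending on the array. No spot was saturated. The error given with a log2 change is the software's estimate for the spots, which for bright probes is 0.20 and holds no variation between cultures. The 3 other arrays shared a slide that SkBr3/Lap was not on, so that slide and clone cannot be told apart for SkBr3, while the BT474 pair is free of this. Of the markers of HER2-positive luminal lines, 8 of 9 were well above background on both SkBr3 arrays and 9 of 9 on both BT474 arrays. The exception was CDH1, the epithelial cadherin, which was too dim to pass on both arrays of the SkBr3 pair.

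In SkBr3/Lap, 4 of the 10 keratin genes were at least 2-fold higher than in the parental cells, namely KRT5, KRT14, KRT16 and KRT17, all basal, and 0 were at least 2-fold lower. Over all genes, 14.1% were at least 2-fold higher and 14.4% lower in this clone. In BT474/Lap, 4 of 10 were higher, namely KRT14, KRT15, KRT16 and KRT17, and 1, KRT23, was lower, against 9.2% and 5.4% of all genes. KRT14, KRT16 and KRT17 passed 2-fold upwards in both clones, KRT14 by 1 of its 2 probes, as did 3.07% of all genes. KRT5, KRT16 and KRT17 reached a signal of 100 on clone arrays only and had to differ in order to be kept. The keratin counts set beside the shares of all genes are therefore no support for a change of these genes. None of the 4 luminal keratins passed 2-fold in either clone, although 1 of the 3 KRT18 probes did in BT474/Lap.

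The luminal keratins come first. KRT7, a type II keratin of glandular epithelium, had scaled signals of 25094 in parental SkBr3 and 29077 in its clone, and 15359 in parental BT474 and 8405 in its clone. The SkBr3 arrays were both above the BT474 arrays, and the clone was the lower of the pair only in BT474. The log2 change was 0.21 ± 0.20 (software error) for SkBr3/Lap and -0.87 ± 0.20 for BT474/Lap, where centring the arrays on their median made it -1.08 and so past 2-fold.

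KRT8, the type II chain of the simple epithelial pair, gave 196032, 144369, 141459 and 91240 on the same 4 arrays, in the order SkBr3, SkBr3/Lap, BT474 and BT474/Lap, with the brighter of its 2 probes. Each clone lay below its parent, and SkBr3/Lap and BT474 were nearly level. The clones differed from their parents by -0.44 (SkBr3/Lap) and -0.63 (BT474/Lap) on the log2 scale, but the second probe gave 0.63 and -0.22, so that the probes had opposite signs in SkBr3/Lap, and quantile normalization turned the sign of the brighter probe there as well (0.06).

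KRT18, the type I partner of KRT8, had 240723, 220831, 156969 and 122608 in the same order with its brightest probe. Both clones were again below their parents. Its log2 changes, -0.12 for SkBr3/Lap and -0.36 for BT474/Lap, turned sign with quantile normalization, to 0.60 and 0.07. The other 2 probes gave 0.22 and -0.48 in SkBr3/Lap, and -0.65 and -1.06 in BT474/Lap. All 3 probes were thus lower in BT474/Lap under the percentile scaling, by unequal amounts.

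KRT19, a small type I keratin that lacks most of the tail, had 385493 in SkBr3 and 218358 in SkBr3/Lap, and 377363 in BT474 and 239688 in BT474/Lap. The parental lines were level and both clones were lower. The log2 changes were -0.82 and -0.65, each larger than the software error of 0.20 and neither as large as 2-fold. With quantile normalization they were -0.04 in SkBr3/Lap and -0.12 in BT474/Lap, both within that error. Before scaling the signals were 295035 in SkBr3 and 310875 in SkBr3/Lap, and 300114 in BT474 and 276595 in BT474/Lap. The lower values of the clones thus depend on the scaling.

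As a group, the luminal keratins had a median log2 change of -0.28 (SkBr3/Lap) and -0.64 (BT474/Lap), where the median of all genes kept was -0.06 and -0.09. With quantile normalization the luminal medians were 0.11 and -0.19. Under the percentile scaling 4 reference genes lay in the same range in SkBr3/Lap, with ACTB at -0.51, GAPDH at -0.43, PPIA at -0.51 and RPLP0 at -0.45, while TBP and HPRT1 were at 0.77 and 0.64. In BT474/Lap ACTB was at -0.86 and RPLP0 at -0.59, also in the range of the luminal keratins, while PPIA was at -0.11, GAPDH at -0.02, TBP at -0.03 and HPRT1 at 0.22. The part of the scaling in the luminal values beyond these alternatives was not tested.

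**Figure D1:**
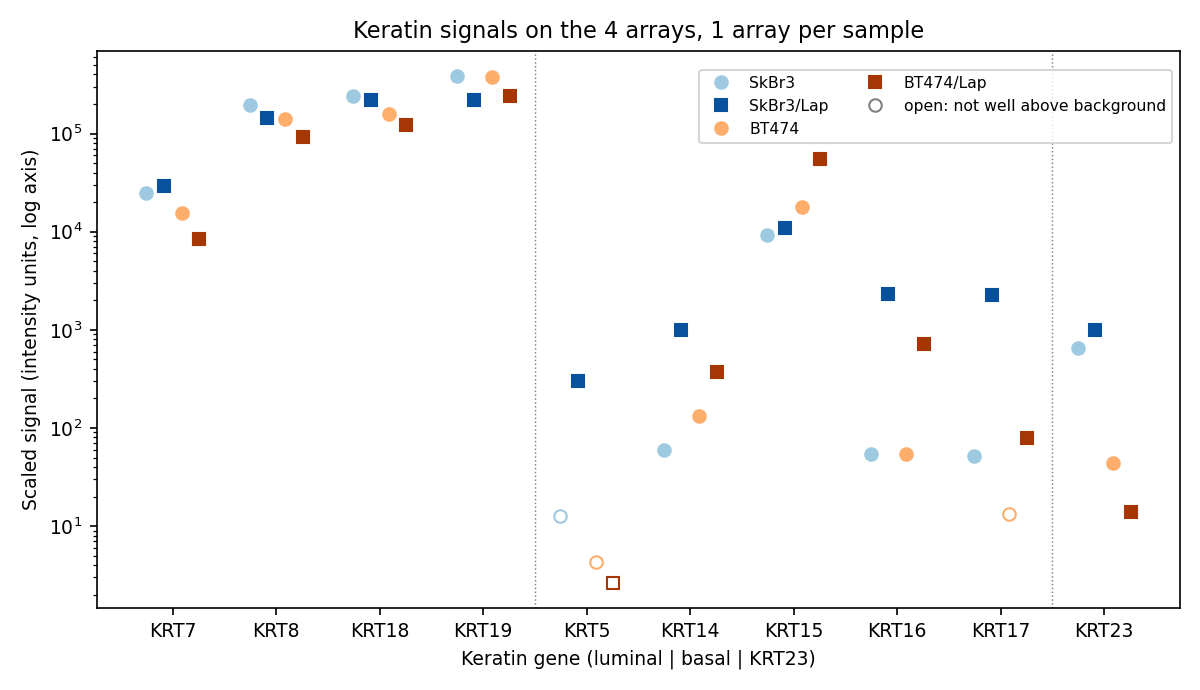
Scaled signal (intensity units, log axis) of each keratin gene, by its brightest kept probe, on the 4 arrays, with circles for parental lines, squares for clones and open symbols for signals not well above background. The luminal keratins stay within 2-fold between clone and parent, whereas KRT16 goes from 54.9 to 2305 between SkBr3 and its clone, and from 54.2 to 724 between BT474 and its clone. Levels of different genes cannot be compared, because probes differ in brightness.

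Among the basal keratins, KRT16 was the one that was more than 10-fold higher in both clones. With the probe A_23_P38537 its scaled signal was 54.9 in parental SkBr3 and 2305 in its clone, and 54.2 in parental BT474 and 724 in its clone. The parental lines were at the same level and both clones were far above them. SkBr3/Lap was 42.0-fold above its parent (log2 change 5.39 ± 0.24, software error) and BT474/Lap 13.3-fold (3.74 ± 0.24). The second probe, A_24_P392991, had 20.5 in SkBr3, where it was not well above background, and 919 in its clone, against 28.7 in BT474 and 214 in that clone. For this probe SkBr3/Lap was at least 43.9-fold above its parent and BT474/Lap 7.47-fold, the same direction as the first. KRT16 has near-identical pseudogene copies, and probes that the authors' annotation names for them gave log2 changes of 5.17 and 2.51 (KRT16P2) and 3.03 and 1.87 (KRT16P3), so that the share of each copy in the signal is uncertain. These names come from a list that the study drew up of genes higher in both clones, and their direction is no independent evidence.

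KRT17, a type I keratin of basal and wounded epithelium, had 51.5 in SkBr3 and 2247 in SkBr3/Lap, and 13.2 in BT474, not well above background, and 78.9 in BT474/Lap. It was 43.7-fold higher in SkBr3/Lap (log2 change 5.45 ± 0.27). In BT474/Lap it was at least 3.93-fold higher, from a clone signal that itself lay under the minimum of 100 before scaling, and with normexp background correction and quantile normalization its log2 change there was 0.80, under 2-fold. SkBr3/Lap thus held by far the highest of the 4 signals.

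KRT14, the type I chain of the basal pair, had 59.1 in parental SkBr3 and 1005 in its clone, and 131 in parental BT474 and 372 in its clone with the probe A_24_P265346. Both clones were above both parental lines, and BT474 was above SkBr3. The log2 changes were 4.09 ± 0.23 (SkBr3/Lap, 17-fold) and 1.5 ± 0.21 (BT474/Lap, 2.83-fold). The second probe, A_23_P4335, disagreed in size, with 119, 216, 115 and 125 in the order SkBr3, SkBr3/Lap, BT474 and BT474/Lap. Its changes were 0.86 and 0.12, so that neither passed 2-fold. The probes differed by 3.23 in SkBr3/Lap and 1.38 in BT474/Lap, while over 3961 genes with several probes the range had a median of 0.31 and 0.30. The first probe stood for the gene because its mean signal over the 4 arrays, clones included, was the higher. That choice rests in part on the clone signals, since in parental SkBr3 this probe was the dimmer one (59.1 against 119). Averaged over both probes, KRT14 was still more than 2-fold higher in SkBr3/Lap (2.47) but not in BT474/Lap (0.81).

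KRT5, the type II chain that pairs with KRT14, was well above background on 1 array only. Its scaled signal was 299 in SkBr3/Lap against 12.7 in SkBr3, and 4.32 and 2.66 in BT474 and BT474/Lap. In SkBr3/Lap it was at least 14.3-fold higher than in the parental cells. For BT474 no fold is given, since neither signal was well above background. KRT14 was thus more than 2-fold higher in both clones by 1 of its 2 probes, and KRT5 was detected in SkBr3/Lap only.

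The sequence in front of KRT5 is shown because it is the gene with signal in 1 of 4 samples. The promoter table from RefSeq (GRCh38.p14) matched KRT5 and KRT8 of the 10 genes, and the KRT8 window lies at a start inside the gene and is not shown. The bases are those before the annotated start of KRT5, on the minus strand at chr12:52520395-52520644, with the last 50 bases before the start in capitals.

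KRT5: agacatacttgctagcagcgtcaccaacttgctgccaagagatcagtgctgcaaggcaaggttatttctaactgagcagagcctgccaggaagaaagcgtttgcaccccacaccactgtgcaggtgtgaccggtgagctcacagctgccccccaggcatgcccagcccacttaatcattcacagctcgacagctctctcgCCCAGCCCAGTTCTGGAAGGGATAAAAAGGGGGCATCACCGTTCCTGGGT

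These 250 bases had a GC content of 56.0%. The window was searched, with 50 bases after the start, on both strands for the letters TGANTCA (AP-1), GGGCGG (Sp1) and TATAAA (the core promoter box) and for the NF-κB consensus. It held 0 matches, while 7.71%, 45.0%, 11.5% and 5.91% of 35116 promoters of the same length held them, in that order. This says only that the letters are not in this window.

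KRT15, a type I keratin of basal cells, had 9274 in parental SkBr3 and 10815 in its clone, and 18053 in parental BT474 and 55183 in its clone. It was the basal keratin that passed 2-fold in BT474/Lap only, level within 1.17-fold in SkBr3/Lap (log2 change 0.22 ± 0.20) and 3.06-fold higher in BT474/Lap (1.61 ± 0.20). The highest signal of KRT15 was in BT474/Lap, and that of the other 4 basal keratins in SkBr3/Lap.

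KRT23 had 649 in parental SkBr3 and 989 in its clone, and 44.2 in parental BT474 and 13.8 in its clone. The SkBr3 signals were far above those of BT474, with a log2 difference of 3.88 between the parental lines, the largest of the 10 genes. SkBr3/Lap was 1.52-fold above its parent (0.61 ± 0.20) and BT474/Lap 3.20-fold below its own (-1.68 ± 0.37), where the clone's signal was close to the lowest one marked as well above background. With normexp background correction and quantile normalization the change in BT474/Lap was -0.60.

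As a group, the basal keratins had a median log2 change of 4.55 (SkBr3/Lap) and 1.61 (BT474/Lap), or 4.09 and 1.79 with dim signals set to their limit. The parental lines differed in some of these genes as well. SkBr3 was above BT474 by 1.96 on the log2 scale for KRT17, counted from a dim BT474 signal. It was below BT474 by values of -1.15 for KRT14 with the probe A_24_P265346 and -0.96 for KRT15. The second KRT14 probe put the parental lines level, with a difference of 0.05. For KRT16 the difference was 0.02.

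**Figure D2:**
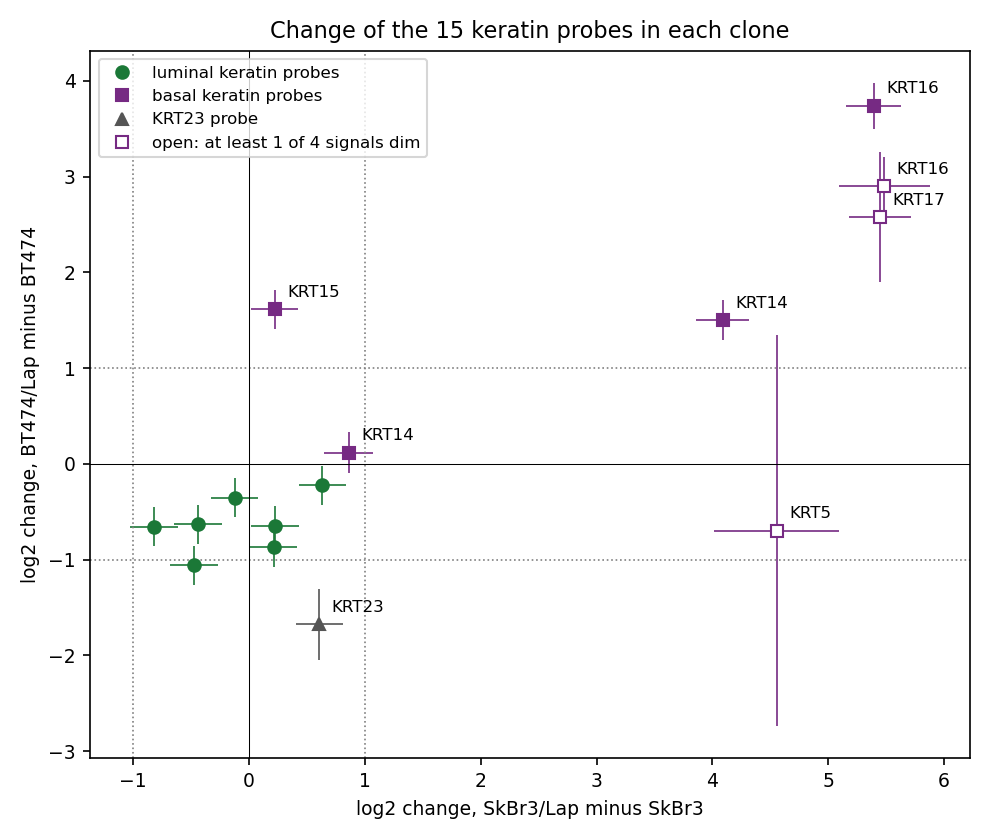
Log2 change of each of the 15 keratin probes in SkBr3/Lap (horizontal axis) and BT474/Lap (vertical axis) against the parental line, with the software error as bars, 2-fold limits as dotted lines and open symbols where at least 1 of the 4 signals was not well above background. Both KRT16 probes, KRT17 and 1 KRT14 probe lie beyond 2-fold in both clones, KRT15 beyond 2-fold in BT474/Lap only, and the luminal probes lie between -1.06 and 0.63 in both.

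Genes known as markers of other cells moved with the basal keratins in part, in samples that are all cultured cell lines or clones of them. Of the myoepithelial markers, contractile and surface proteins of the basal layer, 6 of 7 were kept and all 6 of these were at least 2-fold higher in SkBr3/Lap, while CNN1 did not reach a signal of 100. Their summed scaled signal was 2759 in SkBr3 and 25411 in SkBr3/Lap, with ACTA2 (smooth muscle actin) going from 476 to 8228. In BT474/Lap 2 of the 6 were higher and the sum was 728 in the parental cells and 1239 in the clone. Over all genes 14.1% were at least 2-fold higher in SkBr3/Lap and 9.2% in BT474/Lap. Of the fibroblast markers 2 of 8 were kept, with sums of 2166 and 1754 in the SkBr3 pair and 1608 and 1481 in the BT474 pair, made up mostly of THY1. The other, COL3A1, was dim in SkBr3 and at least 11.7-fold higher in SkBr3/Lap, and dim in both BT474 samples. Of the leukocyte markers 4 of 8 were kept, with sums from 195 to 718 over the 4 arrays, and PTPRC, the leukocyte common antigen, reached a signal of 5.26 at most. Of the endothelial markers 3 of 5 were kept, with sums of 236 and 980 in the SkBr3 pair and 1138 and 570 in the BT474 pair. CDH5 was 8.43-fold and PECAM1 at least 5.38-fold higher in SkBr3/Lap, and in BT474/Lap PECAM1 was at least 2.38-fold higher and VWF 2.18-fold lower. COL3A1 and PECAM1 reached a signal of 100 on the SkBr3/Lap array only and had to differ in order to be kept. MME, a myoepithelial marker counted as higher in both clones, reached it on the clone arrays only and had to differ as well. The marker counts beside the shares of all genes are therefore no support. Whether the cultures held cells of different kinds was not tested, and in bulk RNA more cells of a kind and more RNA per cell cannot be told apart. ERBB2, the amplified gene of both lines, had a log2 change of -1.90 in the SkBr3 clone and -0.65 in the BT474 clone. It is 1 of the 9 markers of HER2-positive luminal lines, which did not all move the same way. In the SkBr3 clone GRB7 (-1.19) and FOXA1 (-2.43) also passed 2-fold downwards, whereas MUC1 (1.17) passed it upwards and GATA3 was at 0.96. For the BT474 clone MUC1 was the only marker past 2-fold, at -1.36, and GATA3 was at 0.26.

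The test across the lines was limma with the cell line as a block, in which the lines stand in for replicates and 1 residual degree of freedom is left. No probe of 25927 passed an adjusted p of 0.05 (0%), and 900 (3.47%) had an unadjusted p below 0.05. Of the 15 keratin probes, 4 had an unadjusted p below 0.05. These were both KRT16 probes (mean log2 change of the clones 4.56 and 4.19), KRT17 (4.01) and 1 KRT14 probe (2.79), and each had an adjusted p of 1.00 in limma. The KRT16 and KRT17 probes were kept only through clone arrays, so that 4 of 15 beside 3.47% of all probes is no support. With the slide in place of the cell line as the block, 2 of the 15 had an unadjusted p below 0.05.

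In the genome the keratin genes lie in clusters, the type I genes on chromosome 17 and the type II genes on chromosome 12. Counted in the order of the RefSeq annotation, the type I cluster ran from KRT24 to KRT17 with 61 protein-coding genes for keratins and keratin-associated proteins. Of these, 18 were kept, with 4 higher and 2 lower in SkBr3/Lap and 7 higher and 2 lower in BT474/Lap. Over all genes the shares were 14.1% higher and 14.4% lower in SkBr3/Lap, and 9.2% and 5.4% in BT474/Lap. Of the genes counted as higher, KRT16, KRT17 and KRT37 reached the signal minimum on clone arrays only. They had to differ in order to be kept, so that the counts of higher genes are no support for a change. The counts include the keratin-associated gene KRTAP2-4, at 1.72 in SkBr3/Lap and -1.22 in BT474/Lap. The kept genes at the KRT17 end of the type I cluster followed as KRT13, KRT15, KRT19, KRT9, KRT14, KRT16 and KRT17. In SkBr3/Lap the last 3 of these passed 2-fold and the others did not. In BT474/Lap KRT13 and KRT15 passed as well, and KRT19, a luminal gene that sits between basal ones, did not. KRT9, a keratin of the palm and sole, was at -0.37 and 0.72.

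The type II cluster had 27 genes from KRT80 to the KRT8 end, with the type I gene KRT18 beside KRT8. Of these, 12 were kept, with 1 higher (KRT5) in SkBr3/Lap and 2 in BT474/Lap. The genes lower by at least 2-fold numbered 4 in SkBr3/Lap and 0 in BT474/Lap. The 4 include KRT1, for which neither SkBr3 signal was well above background, so that no fold can be given. Over all genes 14.1% were higher and 14.4% lower in SkBr3/Lap, and 9.2% and 5.4% in BT474/Lap. KRT5 and KRT1, counted as higher in 1 clone each, reached the signal minimum on clone arrays only. They had to differ in order to be kept, so that the counts of higher genes are no support. KRT7, KRT8 and KRT18 were in none of these counts.

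**Figure D3:**
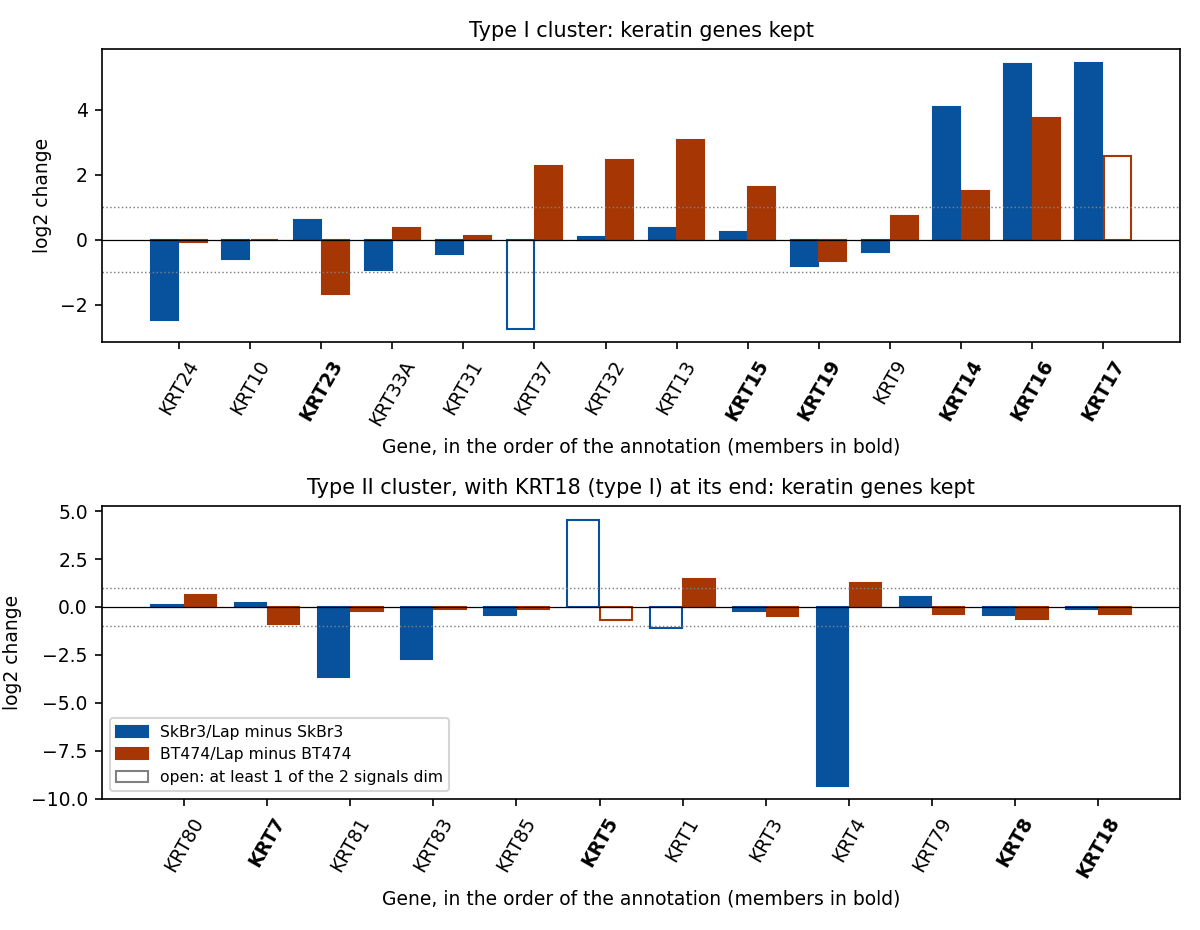
Log2 change against the parental line, with a bar for SkBr3/Lap (blue) and for BT474/Lap (brown), for the keratin genes kept in the order of the annotation, with the type I cluster above, the type II cluster below, 2-fold limits as dotted lines and open bars where at least 1 of the 2 signals was not well above background. KRT14, KRT16 and KRT17, at the end of the type I cluster, have bars beyond 2-fold in both clones, KRT37, KRT32, KRT13 and KRT15 have them upwards in BT474/Lap only, KRT19 stands at -0.82 and -0.65 between KRT15 and KRT9, and KRT4 has the lowest bar, at -9.33 in SkBr3/Lap. In the open bars of KRT1 in SkBr3/Lap and KRT5 in BT474/Lap neither signal was well above background.

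In the counts of these further lists, a gene with 1 dim signal was counted only where the limit of its fold reached 2. Over all genes, counted without that rule, 14.1% were at least 2-fold higher and 14.4% lower in SkBr3/Lap, and 9.2% and 5.4% in BT474/Lap. The counts of each list below are given beside these shares, and none was tested. KRT1, KRT37, NEFH, DSC3, COL17A1 and SPRR1B, counted as higher below, reached a signal of 100 on clone arrays only. They had to differ in order to be kept, so that the counts of their lists are no support for a change. Of 17 other type II keratins 5 were kept, with 0 higher and 1 lower in SkBr3/Lap and 2 higher and 0 lower in BT474/Lap. The gene lower in SkBr3/Lap was KRT4, a keratin of the wet stratified epithelium of mouth and esophagus, with 69516 in parental SkBr3 and 108 in its clone, and 652 in parental BT474 and 1553 in its clone. KRT4 was thus close to the signal minimum in 1 clone and higher in the other (log2 changes -9.33 and 1.25). KRT1, of the upper epidermis, was at 1.44 in BT474/Lap and below the background limit in both SkBr3 samples. KRT80 and KRT79 were at 0.13 and 0.54 in SkBr3/Lap, and at 0.62 and -0.37 in BT474/Lap. As the mean over its probes, KRT80 was at -0.40 in SkBr3/Lap and at 1.19, past 2-fold, in BT474/Lap. KRT6B and KRT6C, partners of KRT16 and KRT17, stayed under the filter with highest signals of 74.6 and 11.1, and no probe matched KRT6A.

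Of 10 other type I keratins 4 were kept. KRT13, the partner of KRT4, had 242 in parental SkBr3 and 310 in its clone, and 399 in parental BT474 and 3365 in its clone. Both members of that pair were higher in BT474/Lap, KRT13 by 3.08 on the log2 scale, while in SkBr3/Lap KRT13 was at 0.35. KRT24 was lower in SkBr3/Lap (-2.46) and KRT10, the partner of KRT1, was at -0.59 and -0.03. Of 17 hair keratins 7 were kept, with 3 lower in SkBr3/Lap (KRT81 at -3.64, KRT83 at -2.73 and KRT37, whose clone signal was dim) and 2 higher in BT474/Lap (KRT32 at 2.45 and KRT37 at 2.27). The medians of the type II, type I and hair lists were -0.23, -0.48 and -0.92 in SkBr3/Lap, and 0.62, 0.35 and 0.12 in BT474/Lap.

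Among the other intermediate filaments, 7 of 12 were kept, with 2 higher in SkBr3/Lap and 1 higher and 1 lower in BT474/Lap. VIM, the filament of mesenchymal cells, had 34.5 in parental SkBr3 and 117 in its clone, and 24385 in parental BT474 and 8530 in its clone. It was higher in SkBr3/Lap by 1.76 and changed by -1.52 in BT474/Lap, in the opposite direction and from a parental level far above that of SkBr3. NEFH, a neurofilament chain, was higher in SkBr3/Lap by 2.27. SYNM (synemin) was at 0.57 and 1.46, and NES (nestin) at -0.93 and -0.07.

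Keratin filaments end at desmosomes, which join cells, and at hemidesmosomes, which join basal cells to the basement membrane. Of 14 genes of desmosomes and plakins 10 were kept, with 3 higher and 2 lower in SkBr3/Lap, 1 higher and 1 lower in BT474/Lap, and medians of -0.12 and 0.10. DSC3, the desmocollin of basal layers, was dim in SkBr3 and had a scaled signal of 162 in SkBr3/Lap, and it was not well above background in the BT474 pair. PKP2 (plakophilin) was higher in SkBr3/Lap by 2.81, whereas PLEC (plectin, which links keratins to hemidesmosomes) was at -1.38 there and at 0.56 in BT474/Lap. DSC2 was lower in both clones, at -1.22 and -1.27.

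All 8 genes of hemidesmosomes and their laminin ligand were kept, with 4 higher and 0 lower in each clone and medians of 1.25 and 0.93. Over all genes 14.1% were higher in SkBr3/Lap and 9.2% in BT474/Lap. COL17A1, counted as higher in both clones, reached the signal minimum on clone arrays only. It had to differ in order to be kept, so that the counts beside these shares are no support for a change. ITGA6, the integrin chain of the hemidesmosome, had 4.68 in SkBr3, not well above background, and 3146 in its clone, against 1094 in BT474 and 2588 in that clone. The gene was thus near the floor of the arrays in SkBr3 only. LAMA3, a chain of the laminin ligand, was higher in BT474/Lap by 5.91 and was at -0.49 in SkBr3/Lap, or at -1.77, past 2-fold lower, as the mean over its probes. COL17A1, a collagen that crosses the membrane there, was higher by 2.14 and 3.67, and LAMB3 by 2.38 and 2.88.

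Of 9 genes of the cornified envelope, the shell of differentiated keratinocytes, 7 were kept, with 4 higher and 0 lower in each clone and medians of 1.12 and 1.1. SPRR3, an envelope precursor, had 422 in parental SkBr3 and 32546 in its clone, and 119 in parental BT474 and 798 in its clone. It was higher by 6.27 and 2.74. SFN, a 14-3-3 protein that binds KRT17, was higher by 1.47 and 1.1, SPRR1B by 2.03 in SkBr3/Lap with 0.27 in BT474/Lap, and IVL (involucrin) by 2.12 in BT474/Lap with 0.36 in SkBr3/Lap.

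Of 12 transcription factors of epithelial cells 11 were kept, with 3 higher and 3 lower in SkBr3/Lap, 2 higher and 0 lower in BT474/Lap, and medians of -0.31 and 0.26. TP63, the factor of the basal layer, had 23.4 in parental SkBr3 and 304 in its clone, and 1415 in parental BT474 and 1704 in its clone. It was higher in SkBr3/Lap by 3.70 and was at 0.27 in BT474/Lap. A link between TP63 and the keratins was not tested. FOXA1, a luminal factor, was at -2.43 and -0.75, EHF at -1.88 and -0.55, and GRHL3 at -3.86 in SkBr3/Lap and 1.74 in BT474/Lap.

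**Figure D4:**
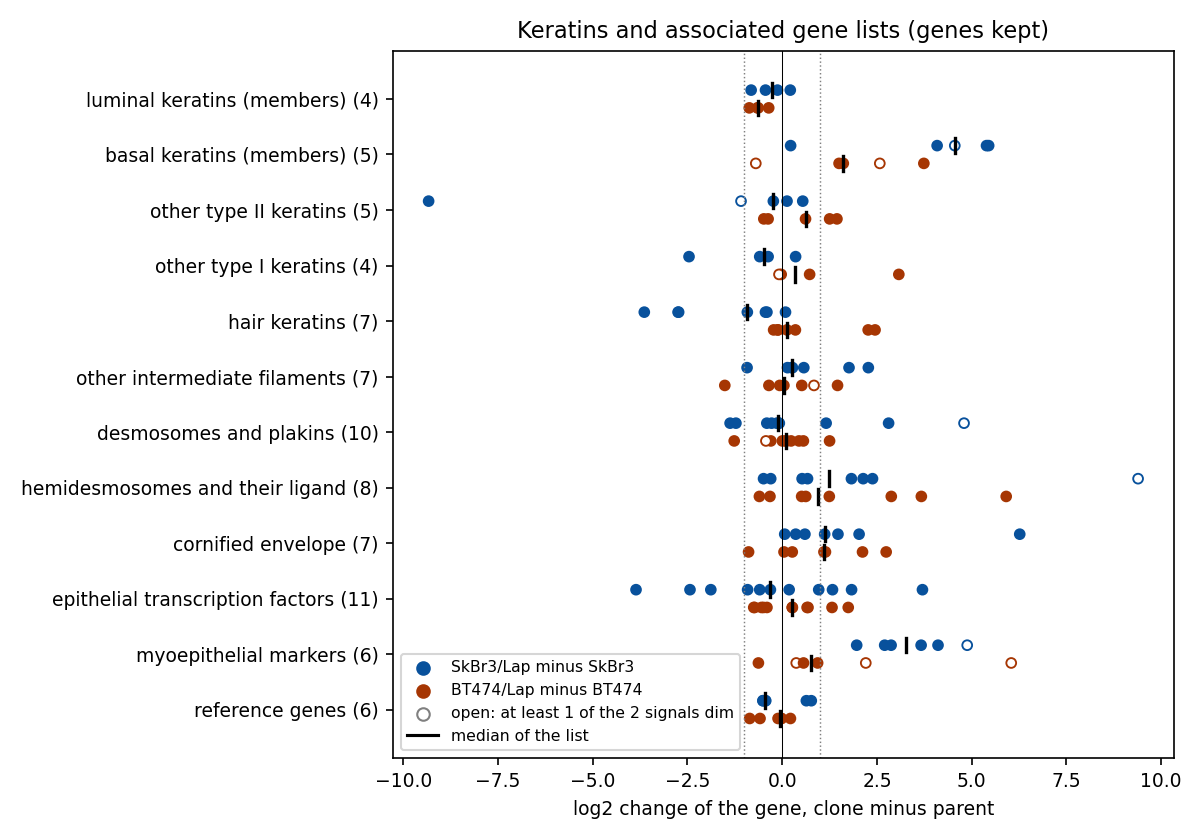
Log2 change of each gene kept against the parental line, for SkBr3/Lap (blue, upper row of a list) and BT474/Lap (brown, lower row), with the median of the list as a black bar, 2-fold limits as dotted lines and the number of genes kept in brackets. Open points mark genes with at least 1 dim signal of the 2. The basal keratins have medians of 4.55 and 1.61 and the luminal keratins -0.28 and -0.64.

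The pattern over the 4 arrays was compared between genes by the largest difference of their log2 values, each centered on its own mean, over 10938 genes well above background on all 4 arrays. The 8 keratins so measured exclude KRT5 and KRT17. KRT18 had 526 genes within 0.25 of it, KRT8 284, KRT19 197 and KRT7 70, whereas KRT15 had 5, KRT14 and KRT23 1 each and KRT16 0. A near-flat pattern is thus shared with many genes and the basal patterns with few. The nearest genes were RPS6KA2 (0.02), R3HDM4 and SEC23B for KRT18, IPO11 (0.06), VDAC2 and PRR5 for KRT8, EIF3C (0.04), CANX and CYC1 for KRT19, and RPL39L (0.06), ZMYM3 and SLC25A22 for KRT7. KRT8 and KRT18, the obligate pair, differed by 0.24.

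For KRT14 the nearest were FYN (0.23), UGT1A6 and ATP10D, and for KRT15 ZFHX4 (0.11), FGD3 and POTED. KRT16 was nearest to GPAT3 (0.44), DEPP1 (0.44) and GNAI1 (0.75), and KRT23 to F12 (0.15), EGFR (0.37) and SLFN11 (0.47). The pair KRT14 and KRT16 differed by 1.47 on the same measure.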

How the data were processed

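Gene expression was measured on 4 Agilent whole-genome arrays, 1 per condition. Spot by spot, the authors deposited a processed intensity, corrected for background, with its error and flags, and for the series a table of log2 values whose centring is not stated. Its column medians were 0.12, -0.20, 0.11 and -0.05, and its changes deviated from those computed here by a median of at most 0.00073 and by 0.62 at most. Per the file headers, 1 channel was read by Feature Extraction 10.1.1.1 (grid build hg18), whereas the methods name another version, a second dye and LOWESS.

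Spots of 1 probe were averaged on the log2 scale and scaled by subtracting the 75th percentile of their array. Probes with a signal of at least 100 on at least 1 array were kept. Of several kept probes the one of highest mean signal over the 4 arrays, clones included, stood for the gene. A probe passed the background limit on an array with 50% or more of its spots flagged as doing so, and a dim signal was raised to the lowest signal so marked to give a limit. RefSeq (GRCh38.p14) names matched 23680 of 41000 probes. The number of arrays limits the precision. The median SD among repeated spots was 0.07 to 0.08 (log2).

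A clone was compared with its own parent, without a test, at 2-fold. Limma 3.58.1 in R 4.3.3 fitted all 25927 probes kept, with Benjamini-Hochberg adjustment. Python 3.11.15 with numpy 2.4.6, pandas 2.3.3 and matplotlib 3.10.9 did the rest. The scripts were tested on simulated data. The genes and lists, and the rule for the further genes named (up to 4 a list, those with the largest change in either clone), were chosen with earlier results of these data known. The alternatives were other scalings (percentile over detected probes, median, quantile), normexp (offset 50), the deposited log2 table, outlier or dim spots left out, 16 added to the signal, other filters, the mean over probes, 3-fold, and other blocks. Raising dim signals was added after seeing the data.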

Additional observations from a re-analysis of the deposited data

Results flagged for a closer look

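Among the 10 keratins and the genes named from the further lists, 6 went opposite ways in the clones, each against its parent. They were well above background on all 4 arrays and past 2-fold in at least 1 clone. With 1 array per condition these differences were not tested. The log2 change in SkBr3/Lap minus that in BT474/Lap was 2.28 for KRT23, 3.28 for VIM, -10.58 for KRT4, -1.93 for PLEC, -6.40 for LAMA3 and -5.60 for GRHL3. The signal of KRT23 in BT474/Lap lay close to the floor of the array. Others went opposite ways outside these limits. KRT7 was at 0.21 and -0.87, and KRT37 was at least 3.03-fold lower in SkBr3/Lap, where its signal was dim, and at 2.27 in BT474/Lap.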

How the results depend on the processing

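No paired analysis was possible because all arrays carry the same replicate number, beyond the pairing of clone and parent by cell line, which is the block in the limma test. The keratins counted as lower in BT474/Lap were 2 with arrays centred on the median instead, which added KRT7 at -1.08, and 0 with normexp and quantile normalization. Those higher in SkBr3/Lap were 2 with dim probes of any array left out, a filter that removes KRT5 and KRT17. The keratin probes with an unadjusted p below 0.05 were 2 with the slide as the block. KRT1 in SkBr3 turned to 0.0798 with quantile normalization, from signals not well above background. Over up to 13 alternatives per gene, KRT16 ranged from 4.13 to 5.55 (SkBr3/Lap) and from 2.64 to 3.85 (the BT474 clone), KRT17 from 4.16 to 5.61 and from 0.80 to 2.68, KRT14 from 2.47 to 4.25 and from 0.81 to 1.61, and KRT5 in SkBr3/Lap from 2.42 to 4.71. With normexp and quantile normalization, VIM (0.93) and DSC2 (-0.89) in SkBr3/Lap, KRT1 (0.87) in BT474/Lap, and KRT37 in both (-0.69 and 0.98) were under 2-fold, and SFN in BT474/Lap was 0.89 at the lowest. The mean over probes put LAMA3 in SkBr3/Lap (-1.77) and KRT80 in BT474/Lap (1.19) past 2-fold and turned the sign of KRT80 in SkBr3/Lap (-0.40). The basal median stayed between 3.18 and 4.71, and between 1.02 and 1.89. The luminal median ranged from -0.32 to 0.11, and from -0.85 to -0.19. Centring on the median moved the median of all probes to 0.05 in the SkBr3 comparison (from -0.10) and to -0.26 in the BT474 comparison (from -0.05). Signals near background limit KRT5, KRT17 and KRT23 in BT474. The cause of these shifts was not tested.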
